A study of Mus musculus with 16 samples.

Results

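Tissue-specific variably methylated IAPs (tsVM-IAPs) are intracisternal A particle elements that the study classed as variably methylated between mice in B cells but not in ear, and their flanks are described here in splenic B and T cells. Of the 26 tsVM-IAPs listed with mm10 positions, 3 lie on the X chromosome and were left out, which leaves 23 on chromosomes 1 to 19. The 5 kb on either side of each element was divided into bins of 500 bp. A bin was kept with at least 3 CpGs and at least 20 methylation calls in at least 5 libraries of each cell type. Of 460 flank bins, 153 held fewer than 3 CpGs and 72 had too few calls. The remaining 235 bins, with at least 1 bin at each of the 23 elements, are a small part of the 2213709 autosomal bins tested. By structure, 12 of the 23 elements are listed as solo LTRs, 10 as full length and 1 as a 5′ LTR with internal sequence. Variable methylation in brain, liver, kidney or testes is also listed for 10 of them, and in none of these tissues for 13. T cells are not among the tissues listed. The list gives no strand, so the 2 sides of an element are called the lower-coordinate and the higher-coordinate side.

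The spleens were from C57BL/6J mice, 6 to 8 weeks old, with no treatment or engineered allele named in the labels. CD43- B cells (resting) and CD4+ CD62L+ T cells (naive) were sorted magnetically, and each cell type gave 8 whole-genome libraries, 4 from males and 4 from females. For either sex of a cell type, 2 libraries underwent bisulphite (BS) conversion, which reads 5-methylcytosine and 5-hydroxymethylcytosine alike as methylated. The other 2 underwent oxidative bisulphite (oxBS) conversion, in which 5-hydroxymethylcytosine reads as unmethylated. The labels describe DNA from pooled mice and a portion of each sample being oxidised, and they give every library a number from 1 to 16 but no mouse. Libraries may therefore share DNA, and the p-values measure the spread between libraries, part of which may be technical.

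IAPs are a young and active family of endogenous retroviruses in the mouse. Each intact copy is bounded by 2 long terminal repeats (LTRs), which hold the promoter, and recombination between them leaves a solo LTR. Most copies are densely methylated, which keeps them silent, and at a few copies the level differs between genetically identical mice and is then usually alike across the tissues of a mouse. DNA methylation around an element is measured here as the share of calls that are methylated over the CpGs of a bin.

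The sequences below come from the called bins of the 3 elements with the largest differences between B and T cells. They are read from the reference genome (GRCm38, mm10) on its plus strand, with every CpG in capitals. All 6 lie outside the elements.
IAP-Lrfn3, 1000 to 1500 bp from the higher-coordinate edge, chr7:30393873-30393930: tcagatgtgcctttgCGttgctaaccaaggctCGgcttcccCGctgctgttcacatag
IAP-Lrfn3, 500 to 1000 bp from the higher-coordinate edge, chr7:30393014-30393169: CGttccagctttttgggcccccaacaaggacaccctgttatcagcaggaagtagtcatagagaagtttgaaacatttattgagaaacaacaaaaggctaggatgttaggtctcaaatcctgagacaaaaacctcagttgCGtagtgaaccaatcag
IAP-Rftn1, 4500 to 5000 bp from the higher-coordinate edge, chr17:50083320-50083480: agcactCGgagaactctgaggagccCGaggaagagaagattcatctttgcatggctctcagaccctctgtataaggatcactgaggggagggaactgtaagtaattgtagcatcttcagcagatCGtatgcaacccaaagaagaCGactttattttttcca
IAP-Rftn1, 4000 to 4500 bp from the lower-coordinate edge, chr17:50070068-50070348: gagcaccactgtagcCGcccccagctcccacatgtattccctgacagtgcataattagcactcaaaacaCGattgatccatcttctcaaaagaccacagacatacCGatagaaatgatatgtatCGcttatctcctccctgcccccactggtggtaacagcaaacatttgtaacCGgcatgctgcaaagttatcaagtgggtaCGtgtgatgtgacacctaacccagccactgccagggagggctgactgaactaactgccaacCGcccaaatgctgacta
IAP-Rftn1, 2500 to 3000 bp from the lower-coordinate edge, chr17:50071541-50071774: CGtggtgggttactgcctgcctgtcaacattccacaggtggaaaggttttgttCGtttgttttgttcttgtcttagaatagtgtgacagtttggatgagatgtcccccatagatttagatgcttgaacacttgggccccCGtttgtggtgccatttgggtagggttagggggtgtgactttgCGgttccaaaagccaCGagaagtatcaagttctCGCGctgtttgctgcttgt
IAP-Acss2, 2000 to 2500 bp from the higher-coordinate edge, chr2:155540843-155541090: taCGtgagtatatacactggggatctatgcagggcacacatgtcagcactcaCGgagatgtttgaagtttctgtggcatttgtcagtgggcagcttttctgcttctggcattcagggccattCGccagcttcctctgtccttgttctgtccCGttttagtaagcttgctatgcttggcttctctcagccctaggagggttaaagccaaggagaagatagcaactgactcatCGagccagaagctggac
The first, with 3 CpGs within 58 bases, had no methylated call in T cells, and the last is the one stretch of the 6 that was less methylated in B cells.

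Depth was less even in B cell libraries, some of which held fewer calls than any T cell library. B cell libraries held between 118868248 and 164440353 autosomal calls and T cell libraries between 151319281 and 163580930, or between 5.83 and 8.07 calls per CpG. Over all autosomal calls, the methylated share ran from 79.4 to 81.5% in B cell libraries and from 78.4 to 79.6% in T cell libraries. Because a CpG had few calls, levels were taken over bins, and a flank bin held a median of 6 CpGs and 44 calls per library. Around the start sites of marker genes, all B cell libraries were below all T cell libraries at 6 of 6 B cell genes (such as Cd79a and Ms4a1). All T cell libraries were below all B cell libraries at 7 of 8 T cell genes (such as Cd3e), Cd28 being the exception, and at both CD8 genes. At 3 myeloid and 2 natural killer cell genes, the libraries of the cell types overlapped.

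Most flank bins were highly methylated in both cell types. Of the 235 bins, 178 (75.7%) were at 80% or more over all libraries, against 82.2% of all tested bins. A further 20 (8.51%) were at 20% or less, against 3.36% of all tested bins, and 37 lay between. All bins were at 80% or more at 7 elements. The median level was 92.1% in B cells and 91.6% in T cells, against 92.4 and 91.8% over all tested bins. Within 500 bp of an element the median was 88.4% in B cells and 85.3% in T cells, over 25 bins. From 500 to 1000 bp it was 93.5 and 92.7%, over 26 bins. Flanks of constitutively variable IAPs (cVM-IAPs), which vary in all tissues assayed by the study, were at medians of 83.8% (B cells) and 78.2% (T cells) in the first 500 bp, over 50 bins. For the candidates that the study classed as false positives these medians were 92.7 and 89.0%, over 25 bins. No test was made between these classes.

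The weakly methylated bins lay at 7 elements. IAP-E030019B13Rik, a solo LTR in an intron of the pseudogene Sfta3-ps, whose nearest protein-coding start is that of Nkx2-1 (a transcription factor of lung, thyroid and forebrain), held 9 of the 20. The median over its 15 bins was 14.6% for B cells, against 15.3% for T cells, and none reached 80%. IAP-Hist4h4, which overlaps the untranslated region of the histone H4 gene Hist4h4, held 4, all within 1 kb of an annotated start. Their lowest level was 0.104%. In the bin from 2000 to 2500 bp B cells had 0 methylated of 420 calls, which allows a level of up to 0.714% if the calls are independent. IAP-Mrs2, in an intron of the mitochondrial magnesium channel gene Mrs2, held 2, both within 1 kb of the Mrs2 start. IAP-Lrfn3 held 2, and IAP-Mapk4, IAP-Rftn1 and IAP-Ccr9 held 1 each, none of them within 1 kb of a start. Of the 27 flank bins within 1 kb of an annotated start, 0 were called different between B and T cells, where 3.08% of the genome bins near a start were called, so that 0 of 27 is near the background.

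To ask whether flanks of these elements differ between the cell types, a logistic model of the quasi-binomial kind was fitted to the calls of each bin, with terms for cell type, sex and assay. P-values were adjusted over all 2213709 bins, and a call needed both an adjusted p under 0.05 and pooled levels at least 20 percentage points apart. Beside it, the two-sided exact permutation p of the library levels is given for named bins, unadjusted. B and T cells were close in most bins: 187 of 235 (79.6%) differed by under 5 points, against 83.5% of all tested bins, and the median difference was 0.293 points. The model called 9 bins (3.83%) at 5 elements, against a background of 3.08% of all tested bins. B cells were higher in 8 (3.40%, background 1.95%) and T cells in 1 (0.426%, background 1.13%). The share of called bins is near the background and is not a result about these flanks as a group. At an adjusted p under 0.05 with any difference there were 16 bins (6.81%, against 6.07% of all tested bins) at 9 elements, and at an unadjusted p under 0.05 there were 42 (17.9%, against 14.1%). Within 1 assay or 1 sex, where 4 libraries per cell type remain, the model called 0 bins in BS libraries, 1 in oxBS libraries, 0 in males and 1 in females, with 19, 28, 24 and 21 bins at an unadjusted p under 0.05. The share of all tested bins called in these subsets was not counted, so there is no background to set beside these counts. In each subset that measured them, the 8 bins higher in B cells differed by 14.9 to 50.8 points. The other differed by -42.9 to -31.0 points. Their direction is no separate support, since the bins were chosen with these same libraries. In 7 of the 9 the library levels do not overlap, so that no subset could reverse it. Without the male oxBS T cell library numbered 6, the count was 5, all of them among the 9, and 1 of the 4 lost bins was then left with too few libraries to be tested. The library levels of the cell types did not overlap in 10 bins (4.26%, background 3.76%), and in 7 of these the difference was also at least 20 points (2.98%, background 2.67%). Among the flank bins of cVM-IAPs 29 of 511 were called, and among those of false positives 12 of 182.

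**Figure D1:**
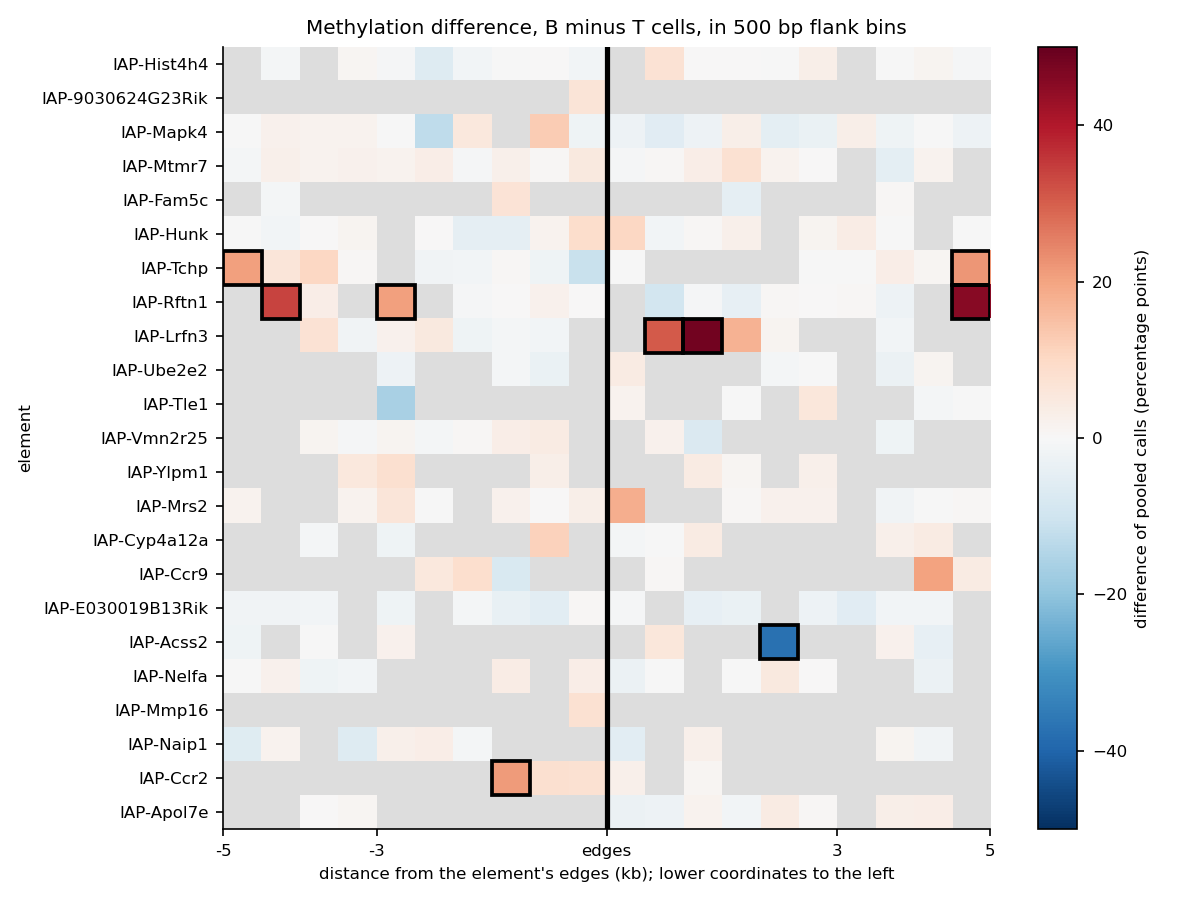
Difference in methylation between B and T cells (percentage points of pooled calls, B minus T) in each 500 bp bin within 5 kb of the 23 elements, with lower coordinates on the left, untested bins in grey and called bins outlined. The 9 outlined bins lie at IAP-Tchp, IAP-Rftn1, IAP-Lrfn3, IAP-Acss2 and IAP-Ccr2, and 8 of them are red (B cells higher).

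Of 51 bins within 1 kb of an edge 1 was called, and of 133 bins beyond 2 kb 6 were called, counts too small to set either distance apart from the background of 3.08%. By annotation (GENCODE vM21), 4 lay in introns, 5 were intergenic and 0 overlapped an exon, while of all 235 bins 101 were intronic, 99 intergenic and 35 exonic. Of the called genome bins 54.1% were intronic, 30.1% intergenic and 15.8% exonic, and 9 bins are too few to differ from these shares. Full-length elements held 5 of the 9 (101 bins tested), solo LTRs 3 (129 bins) and the single 5′ LTR element 1. These counts, and those by tissue that follow, are too small to set any class apart from the background of 3.08%. Elements with no variable tissue listed among brain, liver, kidney and testes held 6 (137 bins), and the others 3 (98 bins).

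The largest difference was beside IAP-Lrfn3, a full-length element of 7133 bp on chromosome 7 from 30385301 to 30392433. The element is intergenic, and the nearest start is that of Tyrobp, an adaptor of activating receptors on natural killer and myeloid cells. In the bin from 1000 to 1500 bp beyond its higher-coordinate edge, B cell libraries ran from 31.8 to 64.5% with a median of 47.0% (mean 47.7 ± 12.7, SD, n = 6). All 8 T cell libraries were at 0%, from 202 calls, which allows a level of up to 1.49% if the calls are independent. The 3 CpGs lie between 1455 and 1481 bp from the edge and share reads, so this limit is too low. The groups did not overlap, and the pooled calls differed by 48.1 points (adjusted p = 1.97e-05 in the quasi-binomial model, exact permutation p = 0.000333). All 3 CpGs took part, with 35.5, 50.8 and 50.8% in B cells and 0% in T cells.

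In the neighbouring bin, from 500 to 1000 bp, B cell libraries ran from 57.1 to 81.0% (median 69.2, mean 69.3 ± 7.28, SD, n = 8). T cell libraries ran from 21.4 to 53.1% (median 44.0, mean 37.3 ± 14.1, SD, n = 7), so every B cell library was above every T cell library. The difference was 30.8 points (adjusted p = 0.00337, exact permutation p = 0.000155). The 3 T cell BS libraries were at 44.4, 51.3 and 53.1%, and 3 of the 4 T cell oxBS libraries were between 21.4 and 23.5%, with the other at 44.0%. In BS libraries alone the difference was 18.4 points and in oxBS libraries alone 42.6 points, and whether these differ was not tested. The second of its 3 CpGs, 720 bp from the edge, stood at 97.5% in B cells and 35.9% in T cells.

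Farther out, from 1500 to 2000 bp, B cells were at 26.0 ± 9.34% (SD, n = 8) and T cells at 9.62 ± 6.06% (SD, n = 8), and the groups overlapped. This bin had an adjusted p of 0.0108 (exact permutation p = 0.00218), but its 17.2 points fell short of the limit of 20, and among the uncalled bins with an adjusted p under 0.05 it is the nearest to that limit. In bins of 250 bp, the one that starts at 1500 bp differed by 31.5 points and was called (adjusted p = 0.0287 in the quasi-binomial model). From 2000 to 2500 bp, the means were 7.29 and 6.18% over 11 CpGs. From 3500 to 4000 bp, both were above 93%, at 93.1 and 93.7%. On the opposite side of the element, 7 bins stood between 72.5 and 95.0% in both cell types, and their differences ran from -2.17 to 7.23 points. At the element's own higher-coordinate edge, B cells were at 75.4 ± 10.7% (SD, n = 7) and T cells at 55.5 ± 13.9% (SD, n = 7). That difference of 19.8 points did not pass the edge test described below (adjusted p = 0.110, exact permutation test).

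IAP-Rftn1, a full-length element of 4357 bp on chromosome 17 from 50074463 to 50078819, held 3 of the 9 called bins. It lies in an intron of Rftn1, which codes for raftlin, a lipid raft protein of B cell receptor signalling, and all 3 bins lie in introns of the gene. In the bin from 4500 to 5000 bp beyond its higher-coordinate edge, B cell libraries ran from 88.5 to 100% (median 94.7, mean 94.1 ± 3.53, SD, n = 8). In T cells, libraries ran from 40 to 63.0% (median 48.1, mean 49.5 ± 9.27, SD, n = 5). The groups did not overlap, and the difference was 45.6 points (adjusted p = 0.000181, exact permutation p = 0.000777). The first 2 of its 4 CpGs were at 26.9 and 12% in T cells and at 89.2 and 94.4% in B cells, while the fourth was at 88.9 and 98.2%.

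On the lower-coordinate side of IAP-Rftn1, from 4000 to 4500 bp, B cell libraries ran from 87.0 to 95.5% (median 90.4, mean 91.1 ± 3.29, SD, n = 8). In T cells, libraries ran from 44.0 to 70.2% (median 54.4, mean 56.2 ± 9.18, SD, n = 8). The difference was 34.0 points with no overlap (adjusted p = 3.07e-05, exact permutation p = 0.000155), and B cells were higher at each of the 9 CpGs. From 2500 to 3000 bp on the same side, both cell types were weakly methylated. B cell libraries ran from 20 to 50% (median 26.1, mean 28.0 ± 9.84, SD, n = 8), and T cell libraries from 1.14 to 9.80% (median 5.90, mean 5.62 ± 3.12, SD, n = 8). The difference was 20.5 points with no overlap (adjusted p = 0.000934, exact permutation p = 0.000155). It fell under 20 points, with an adjusted p still under 0.05, when any 1 of 4 libraries was left out: 19.8 points without 2 (male oxBS B cells) or 6 (male oxBS T cells), just under 20 without 15 (female BS T cells) and 18.6 without 12 (female BS B cells). Library 12 was the highest, at 50%, and the next B cell library was at 30.6%.

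The other 12 bins around IAP-Rftn1 stood between 79.5 and 98.2%. The adjusted p of 1 of them passed, with B cells lower: from 500 to 1000 bp beyond the higher-coordinate edge, B cells were at 89.4 ± 3.88%, against 98.2 ± 1.22% for T cells (SD, n = 8 each). All B cell libraries were below all T cell libraries there, and the difference of -9.10 points had an adjusted p of 0.000221 (exact permutation p = 0.000155), under the limit of 20 points. B cells were also lower at the adjoining LTR edge, at 78.4 ± 13.6% (SD, n = 8) against 95.9 ± 2.17% (SD, n = 7).

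**Figure D2:**
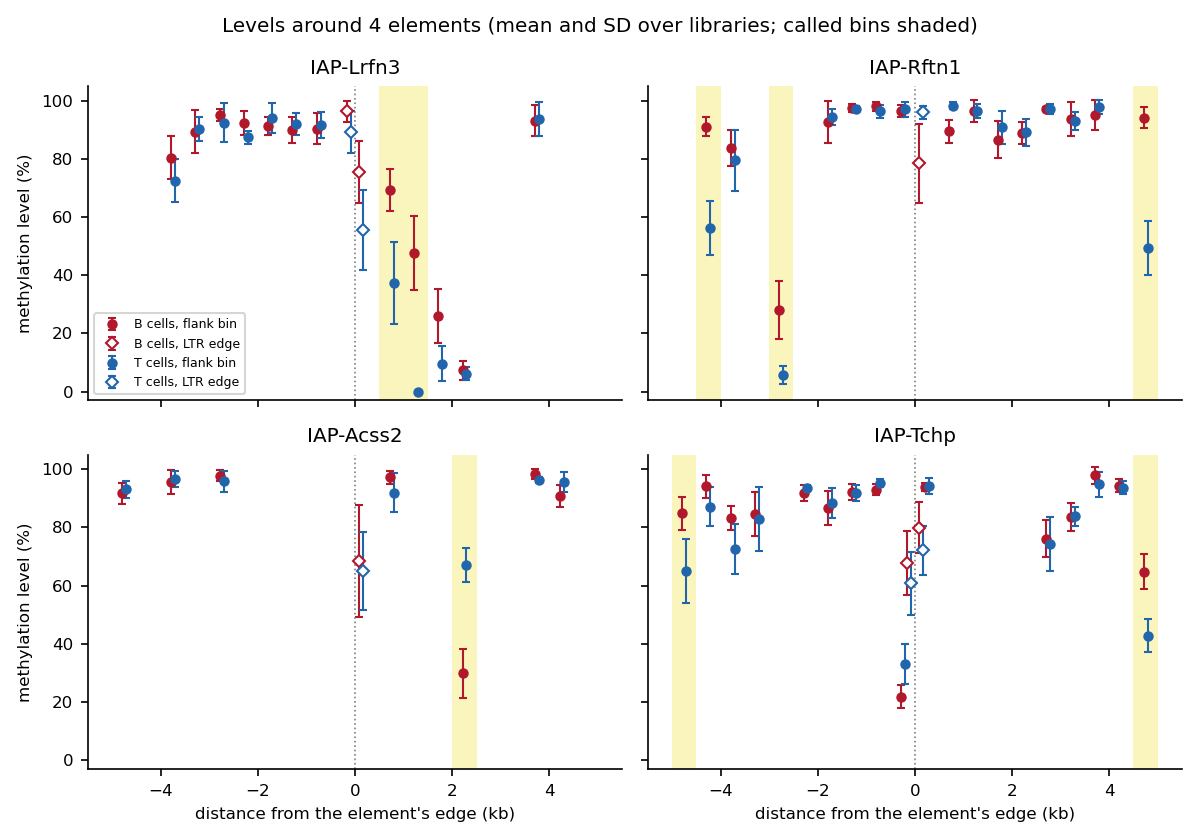
Methylation level (%) of flank bins (filled circles) and of LTR edges (open diamonds) in B cells (red) and T cells (blue) against the distance from the element's edge in kb, with mean and SD over libraries and called bins shaded, at 4 elements. T cells are at 0% from 1000 to 1500 bp beside IAP-Lrfn3, and at IAP-Acss2 the single shaded bin is the one with T cells (67.1%) above B cells (30%).

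IAP-Acss2 held the single called bin with more methylation in T cells. This solo LTR of 361 bp lies on chromosome 2 from 155538451 to 155538811, in an intron of Acss2, which codes for an enzyme that makes acetyl-CoA from acetate. In the bin from 2000 to 2500 bp beyond its higher-coordinate edge, also intronic, B cell libraries ran from 19.7 to 47.1% (median 27.4, mean 30 ± 8.41, SD, n = 8). In T cells, libraries ran from 59.4 to 75.4% (median 66.7, mean 67.1 ± 5.72, SD, n = 8). The groups did not overlap, and the difference was -37.4 points (adjusted p = 5.72e-05, exact permutation p = 0.000155). T cells were higher at all 6 CpGs, most of all at the first, with 92.2% against 14.3%. At the other 6 bins of this element both cell types were above 90%, with differences between -4.11 and 5.67 points. At its one measured LTR edge, B cells were at 68.5 ± 19.1% (SD, n = 8) and T cells at 65.0 ± 13.5% (SD, n = 7).

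IAP-Tchp, an intergenic solo LTR of 452 bp on chromosome 5 from 114699476 to 114699927, had a called bin at either end of the window. The one on the higher-coordinate side, from 4500 to 5000 bp, is 2833 bp from the start of Tchp, which codes for the keratin-binding protein trichoplein. B cell libraries there ran from 54.8 to 70.0% (median 66.7, mean 64.8 ± 5.99, SD, n = 8) and T cell libraries from 33.3 to 52.4% (median 44.2, mean 42.9 ± 5.66, SD, n = 8). The difference was 22.2 points with no overlap (adjusted p = 0.00585, exact permutation p = 0.000155). The one on the lower-coordinate side, from 4500 to 5000 bp, is 3492 bp from the start of Gltp, which codes for a glycolipid transfer protein. B cell libraries ran from 76.0 to 91.7% (median 85.5, mean 84.9 ± 5.6, SD, n = 8) and T cell libraries from 50 to 81.4% (median 65.7, mean 65.1 ± 11.1, SD, n = 8), so the groups overlapped. Its 20.4 points (adjusted p = 0.00378, exact permutation p = 0.000777) make it the called bin nearest to the limit. The difference was between 17.3 and 19.9 points, with an adjusted p still under 0.05, when library 1, 2, 6, 10 or 14 was left out.

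In the bin at IAP-Tchp's lower-coordinate edge, within 500 bp, B cells were at 21.8 ± 3.96% and T cells at 33.1 ± 7.03% (SD, n = 8 each). The edge inside the element was at 67.7 ± 11.1% and 60.9 ± 10.8% (SD, n = 8 each), and the next bin outward was above 92% in both. None of these 3 differences was called.

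IAP-Ccr2 lies in intergenic sequence on chromosome 9 from 124081175 to 124082990, 18960 bp from the start of Ccr2, which codes for the receptor of the chemokine CCL2. From 1000 to 1500 bp beyond its lower-coordinate edge, B cell libraries ran from 33.3 to 59.1% (median 48.1, mean 47.2 ± 9.96, SD, n = 6). T cell libraries ran from 13.3 to 39.3% (median 26.1, mean 25.3 ± 9.39, SD, n = 7), and the groups overlapped. The difference of 21.4 points rested on 3 CpGs and passed narrowly (adjusted p = 0.0486, exact permutation p = 0.00408). It was lost in 15 of the 16 fits that left out 1 library, all except the one without library 13, with differences between 19.2 and 24.3 points and adjusted p between 0.0431 and 0.138 over the 16. Libraries 2, 8 and 11 were not used in this bin. Without any 1 of them the difference stayed at 21.4 points, and the adjusted p of the model was between 0.0517 and 0.0524. In the adjoining bin from 500 to 1000 bp, with 23 CpGs and up to 362 calls per library, B cells were at 92.8 ± 1.26% and T cells at 84.7 ± 3.49% (SD, n = 8 each). There the groups did not overlap, and the 7.92 points had an adjusted p of 0.00051 (exact permutation p = 0.000155).

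**Figure D3:**
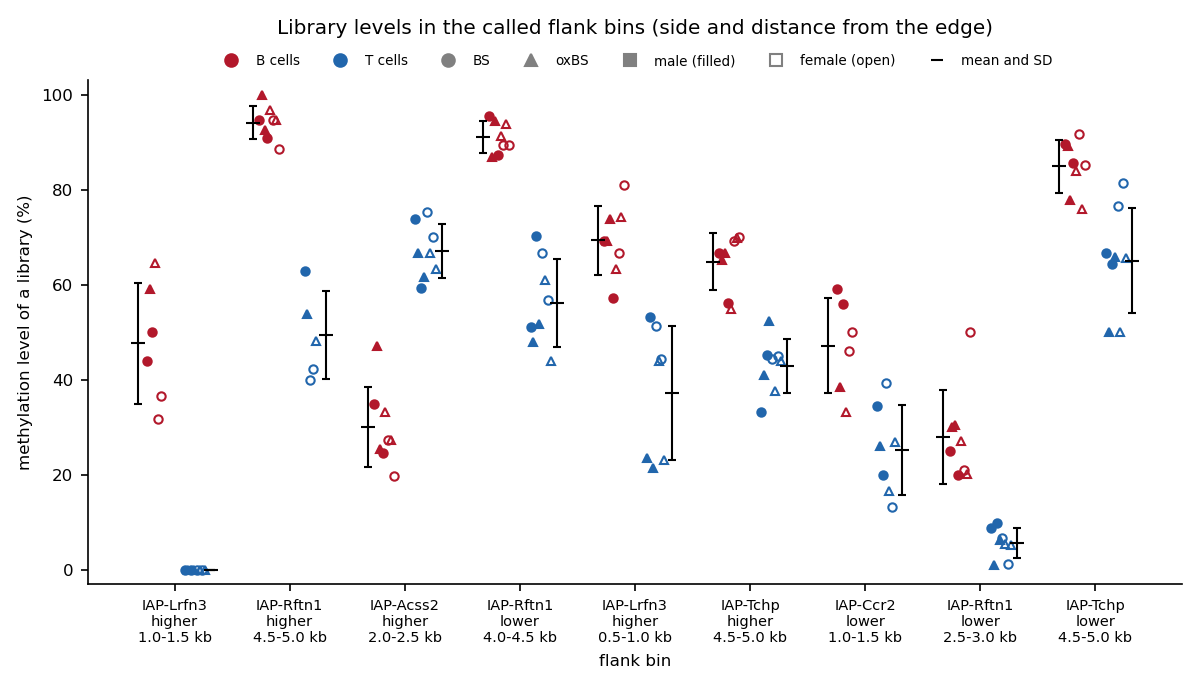
Methylation level (%) of every library with at least 20 calls in the 9 called bins, in order of the size of the difference, with B cells in red, T cells in blue, BS as circles, oxBS as triangles, males filled, females open, and the mean and SD beside each group. The groups are apart in 7 bins and overlap at IAP-Ccr2 and at the lower-coordinate bin of IAP-Tchp.

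Within the called bins, neighbouring CpGs often differed more from each other than the bin means show. At IAP-Acss2, T cells went from 92.2% at the first CpG, 2034 bp from the edge, to 16.7% at the last, 2372 bp from it. At IAP-Rftn1, from 4500 bp, the T cell level rose from 12% at 4526 bp to 88.9% at 4645 bp, while B cells stayed between 89.2 and 98.2%. At the lower-coordinate bin of IAP-Tchp, the CpG at 4982 bp was higher in T cells (90.4 against 79.4%), and the other 4 were higher in B cells. Each of these CpGs had between 40 and 100 pooled calls per cell type, and CpGs of a bin share reads.

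**Figure D4:**
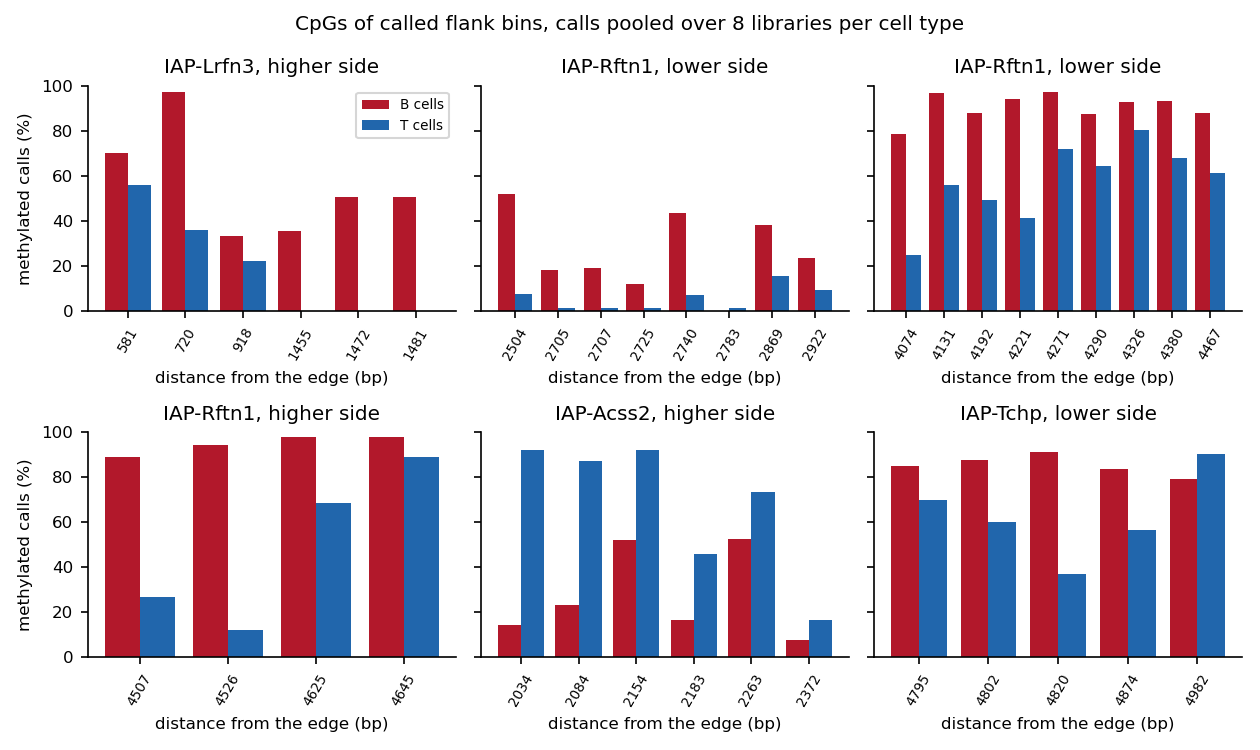
Methylated share of calls (%) at each CpG of 7 called bins, in 6 panels, with calls pooled over the 8 libraries of B cells (red) and of T cells (blue), against the distance from the element's edge in bp. At IAP-Lrfn3 the 3 CpGs from 1455 to 1481 bp have no methylated call in T cells, and at IAP-Acss2 all 6 CpGs are higher in T cells.

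Beside the bin of IAP-Lrfn3 given above, 6 bins had an adjusted p under 0.05 and a difference under 20 points, and they were named after their values had been seen. Of these, 2 are given above, at IAP-Rftn1 and IAP-Ccr2. From 2500 to 3000 bp on the lower-coordinate side of IAP-Tle1, named for a Groucho co-repressor gene and in intergenic sequence, B cells were at 78.8 ± 8.50% and T cells at 94.7 ± 3.98% (SD, n = 8 each). That is a difference of -16.3 points (adjusted p = 0.0032, exact permutation p = 0.000466). From 2000 to 2500 bp on the lower-coordinate side of IAP-Mapk4, in an intron of an atypical MAP kinase gene, the means were 74.2 and 86.2%, and the difference was -12.6 points (adjusted p = 0.0109, exact permutation p = 0.00389). At IAP-Mrs2, from 2500 to 3000 bp on the lower-coordinate side, the difference was 5.98 points (adjusted p = 0.0354, exact permutation p = 0.000932). At IAP-E030019B13Rik, from 3000 to 3500 bp on the higher-coordinate side, it was -5.51 points (adjusted p = 0.0126, exact permutation p = 0.000311). B cells were thus higher in 3 of these 7 bins and T cells in 4. One further bin differed by 20 points without passing: from 4000 to 4500 bp beyond the higher-coordinate edge of IAP-Ccr9, in an intron of this chemokine receptor gene, B cells were at 80.9 ± 13.1% (SD, n = 8) and T cells at 62.1 ± 9.81% (SD, n = 7).

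At the other 14 elements, no bin had an adjusted p under 0.05. At IAP-Hist4h4, the 16 bins differed by between -6.38 and 7.13 points. The 18 bins of IAP-Mtmr7, in an intron of a phosphoinositide phosphatase gene, differed by between -5 and 7.69 points, and 17 of them were at 80% or more. The 17 bins of IAP-Hunk, named for a protein kinase gene, differed by between -4.56 and 10.4 points. At IAP-Nelfa, named for a subunit of the negative elongation factor, the 12 bins differed by between -2.91 and 5.01 points. At IAP-Naip1, in an intron of an inflammasome sensor gene, all 10 bins were at 80% or more and differed by between -6.52 and 3.33 points. B cells were higher in all 6 bins of IAP-Ylpm1, in an intron of the gene Ylpm1, by 0.82 to 7.94 points. IAP-Cyp4a12a, named for a fatty acid hydroxylase gene, had 8 bins with differences of -2.26 to 11.4 points, and IAP-Ube2e2, named for a ubiquitin-conjugating enzyme gene, 8 bins with -3.38 to 4.13 points. At IAP-Apol7e, named for an apolipoprotein L gene, the 10 bins differed by between -2.85 and 4.15 points. The listed span of this element is 328 bp, though it is classed as full length. IAP-Fam5c had 4 bins, with a median of 78.0% for B cells and 74.3% for T cells, and IAP-9030624G23Rik and IAP-Mmp16 had 1 bin each, with B cells 6.59 and 7.45 points higher.

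The assay and the sex of the mice were tested in the same model. Between BS and oxBS libraries, 0 of the 235 bins were called, and 13 (5.53%, against 5.32% of all tested bins) had an unadjusted p under 0.05. Of all tested bins 0% were called (background). The widest difference was 12.8 points, BS higher, in the called bin on the lower-coordinate side of IAP-Tchp, with an adjusted p of 0.920. Between male and female libraries, 0 of 235 were called, and 4 (1.70%, against 2.76%) had an unadjusted p under 0.05. Of all tested bins 4.52e-05% were called (background), which is 1 bin. The widest difference was 10.5 points, males higher, in the bin of IAP-Rftn1 from 4500 bp. With 10 or with 40 calls required per library, both counts were again 0.

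The LTR edges of the elements were then compared between the cell types. The level at an edge was the mean methylated fraction of the 8 CpGs inside the element nearest to it, and 44 of 46 edges had a level in at least 5 libraries of each cell type. The candidate elements were first screened by the range over libraries within B and within T cells, so the ranges of both are described only. Its median was 22.9 points for B cells against 20.3 for T cells, and it was larger in B cells at 21 edges and in T cells at 23. Edge levels covered nearly the whole scale, from 0.357% at the higher-coordinate edge of IAP-Hunk to 98.9% at that of IAP-Tle1 in B cells. The median over edges was 77.7% in B cells and 79.0% in T cells, and 21 edges in either cell type had means between 20 and 80%. Where the first 500 bp outside could be measured, at 24 edges, the bin was above the edge in 13 in either cell type.

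By a two-sided exact permutation test of library levels, adjusted over 264 autosomal edges of IAPs and other endogenous retroviruses on the study's list, 2 of the 44 edges were called with the limit of 20 points (background 3.79%). T cells were higher at both. At the higher-coordinate edge of IAP-Hist4h4, a solo LTR of 684 bp, B cell libraries ran from 23.8 to 64.6% (median 49.0, mean 49.2 ± 14.6, SD, n = 8). In T cells, libraries ran from 67.6 to 87.5% (median 78.5, mean 79.2 ± 6.70, SD, n = 8). All B cell libraries were below all T cell libraries at this edge. In BS libraries alone the difference was -24.3 points and in oxBS libraries alone -35.6 points. Over all libraries it was -30 points, with p = 0.000155, the smallest that the exact test can give for these groups, and an adjusted p of 0.0137. The first 500 bp beyond that edge could not be tested. From 500 to 1000 bp, B cells were at 37.3 ± 6.34% and T cells at 29.3 ± 3.76% (SD, n = 8 each), and the bins from 1000 to 2500 bp were under 1% in both.

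At the higher-coordinate edge of IAP-Vmn2r25, an intergenic solo LTR of 327 bp named for a vomeronasal receptor gene, B cell libraries ran from 21.9 to 40% (median 25.5, mean 28.7 ± 7.12, SD, n = 8). T cell libraries ran from 37.5 to 58.0% (median 51.8, mean 48.7 ± 7.89, SD, n = 8), and the groups overlapped slightly. The difference was -20.1 points (exact permutation p = 0.000932, adjusted p = 0.0246). It was -13.3 points in BS libraries alone and -26.8 points in oxBS libraries alone. The T cell BS libraries, from 37.5 to 50.4%, were all below the T cell oxBS libraries, from 53.1 to 58.0%, and the part of the assay in the result was not tested. The size of the difference came to between 18.7 and 19.8 points when library 2, 3, 5, 6, 8, 10, 11, 12, 14 or 16 was left out, with an adjusted p under 0.05 throughout. With calls pooled over the CpGs the difference was -15.5 points and did not pass (exact permutation, adjusted p = 0.120). At the other edge of this short element, B cells were at 9.09 ± 5.74% and T cells at 21.8 ± 5.51% (SD, n = 8 each), a difference of -12.8 points (exact permutation, adjusted p = 0.0246). All 10 flank bins of IAP-Vmn2r25 were at 80% or more, and their differences ran from -7.12 to 4.21 points. The study's bisulphite primers for IAP-Hist4h4 and IAP-Vmn2r25 match the converted reference at these same higher-coordinate edges. The only other edge with an adjusted p under 0.05 was that of IAP-Rftn1 given above, at -17.5 points (exact permutation, adjusted p = 0.0410). With any difference, 4 of the 44 edges passed, against 20 of all 264, which is near the background. T cells were higher at all 4, and the share by direction over all edges was not counted. The edge windows of IAP-Vmn2r25 overlap and share CpGs, as do those of IAP-Naip1 and IAP-Apol7e, so that its 2 edges are not separate measurements. Of the 5 elements with a called flank bin, 0 had a called edge, where 3.79% of all 264 edges were called, so that 0 is near the background.

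**Figure D5:**
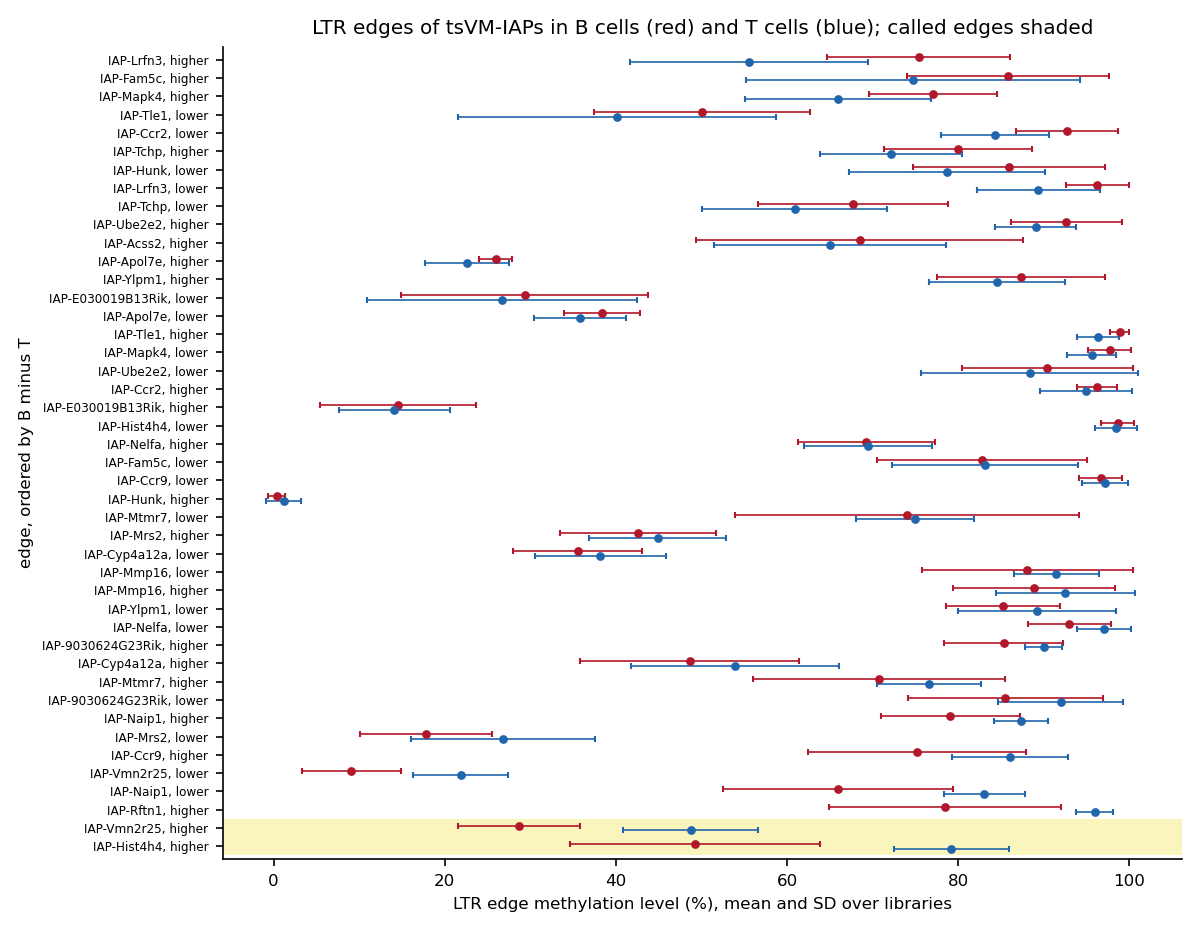
Methylation level (%) at the 44 measured LTR edges in B cells (red) and T cells (blue), mean and SD over libraries, ordered by the difference between the cell types with T cells highest above B cells at the bottom and called edges shaded. The shaded edges are the higher-coordinate edges of IAP-Hist4h4 and IAP-Vmn2r25, and at most other edges the bars overlap.

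Sequence features of the bins were counted without a test. Flank bins had a median GC content of 45.4%, against 45.2% of all tested bins, and a median repeat-masked share of 21.2%, against 16.4%. Short motifs of factors that act in lymphocytes were searched on both strands, with N for any base. The EBF1 motif CCCNNGGGA was in 15 of 235 bins (6.38%, against 6.39% of all genome bins tested) and in 0 of the 9 called bins. The RUNX motif TGTGGTTT was in 12 bins (5.11%, against 4.01%) and the TCF7/LEF1 motif CTTTGAT in 19 (8.09%, against 8.44%), both in 0 called bins. The PU.1 motif GAGGAAGT was in 13 bins (5.53%, against 3.24%), among them the called bin of IAP-Rftn1 from 2500 to 3000 bp. The CTCF motif AGGGGGC was in 7 bins (2.98%, against 5.39%), among them the called bin on the lower-coordinate side of IAP-Tchp. Its other form AGGTGGC was in 20 (8.51%, against 7.84%), and the ETS motif CCGGAAG in 5 (2.13%, against 2.51%), both in 0 called bins. Among the genome bins called higher in B cells, EBF1 was in 4.98%, RUNX in 9.52% and TCF7/LEF1 in 13.2%, and among those called higher in T cells, EBF1 was in 20.2%. With 8 bins higher in B cells and 1 in T cells, counts of 0 or 1 cannot be set against these shares.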

How the data were processed

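Genomic DNA of sorted B and T cells was sequenced after BS or oxBS conversion. The authors deposited, for each library, counts of unmethylated and methylated calls per CpG with strands combined (mm10). Per the submitters' processing notes, the tools were Trim Galore 0.6.0, Bismark 0.20.0 and SAMtools 1.3.1, and reads under a mapping quality of 10 were removed. Listed positions that are no CpG of the reference (43070 to 59226 per library) were left out here. Reads from near-identical copies may be lost or misplaced inside elements, and their part in the edge levels was not tested. Element positions, structures and classes were taken from the study's list.

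Calls were summed over the CpGs of each 500 bp bin, and a library was used in a bin with at least 20 calls. A quasi-binomial logistic model (cell type, sex, assay; Python 3.11.15, NumPy 2.4.6, SciPy 1.17.1, Numba 0.67.0) gave F tests on the deviance with the dispersion floored at 1. P-values were adjusted by Benjamini-Hochberg over all autosomal bins and the flank bins of every listed element. Library levels are means ± SD. Differences are of pooled calls in bins and of library means at edges. At edges a library needed at least 20 calls and 4 covered CpGs, and the test was a two-sided exact permutation test of library means. Limits for a count of 0 are 3 counts over the calls and cover counting error only. They take the calls as independent, so they are too low where CpGs share reads. The scripts were tested on simulated data.

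The members and lists (markers, motifs) were chosen with earlier results of these data known. Bins named were up to 12 called bins with the largest difference, those of the less common direction, and the called and uncalled bins nearest the limit. Every called edge was named, as was the gene that holds a bin or else the nearest start. Other bins were named after their values were seen.

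Alternatives changed the calls, CpGs and difference required, the covariates, the test, the bin length and the libraries used. Elements on the X chromosome were not analysed here. One gene of the B cell marker list is not reported here.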

Additional observations from a re-analysis of the deposited data

Results flagged for a closer look

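In the bin from 2500 to 3000 bp on the lower-coordinate side of IAP-Rftn1, in an intron of the raftlin gene, the female BS B cell library numbered 12 stood at 50% methylation, far above the other 7 B cell libraries. The next was at 30.6%, a gap of 19.4 points, which is 0.648 of the group's range against a critical value of 0.526 for 8 libraries. Of 23 groups of libraries examined in this way, 1 stood out, and chance gives about 1 in 20. The T cell libraries of this bin ran from 1.14 to 9.80%, and without library 12 the difference between the cell types was 18.6 points.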

How the results depend on the processing

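No paired analysis was possible because the labels number the libraries from 1 to 16 and the groups share no replicate number. The 9 called flank bins became 5 with a limit of 30 points, 16 with no limit, 2 with at least 40 calls per library (115 bins tested), 4 with at least 5 CpGs (167 bins), 0 in BS or in male libraries alone and 1 in oxBS or in female libraries alone. With at least 5 CpGs, the bins lost were those with fewer CpGs, which could not be tested. With at least 40 calls, some of the 9 could not be tested either. Leaving out 1 library at a time gave 5 to 8. The count was between 8 and 13 with 10 points, 10 calls, no covariates, adjustment over the listed flanks alone, no floor on the dispersion, all libraries used, the exact permutation test, 250 bp bins or 1000 bp bins. For these alternatives of the flank bins, the share of all tested bins called was not counted. With other bin lengths, the called stretches were partly different ones. In 1000 bp bins, none was called at IAP-Tchp or over the called bin from 2500 to 3000 bp at IAP-Rftn1. In 250 bp bins, none was called at IAP-Ccr2 or from 500 to 1000 bp at IAP-Lrfn3. Which of these could be tested was not counted. The 2 called edges became 4 with no limit, 1 (IAP-Hist4h4) with pooled calls and 0 with at least 40 calls, where 22 edges and neither of the 2 could be tested, or in BS or oxBS libraries alone, where the smallest exact permutation p (0.0286) cannot pass the adjustment. The count was 2 with 10 calls, and 2 with 4 CpGs, of which 1 (IAP-Hist4h4) was among the 2 called with 8 CpGs. Leaving out 1 library at a time, which was added after seeing the data, gave 1 to 2. The counts of 0 for assay and for sex were 0 under all 3 alternatives of each. Of 258 values of the 12 named bins and edges under alternatives, 188 kept their side of the threshold, 70 no longer passed and 0 changed direction. Among the 188 are 23 of the uncalled bin of IAP-Lrfn3, which stayed uncalled. Alternatives in which a bin or edge could not be measured are not among the 258. The kept direction is no separate support, since the called bins and edges were chosen with these same libraries. With about 20 calls per library, the levels of bins with 3 CpGs carry wide counting error.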

Other observations

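The edge at which T cell libraries differed most by assay without overlap was seen on inspection of the values, and the difference was not tested. IAP-Tle1 is an intergenic element on chromosome 4 from 71291216 to 71293236. At its lower-coordinate edge the T cell BS libraries ran from 54.1 to 62.3% (mean 57 ± 3.67, SD, n = 4), and the T cell oxBS libraries from 18.2 to 29.7% (mean 23.2 ± 5.27, SD, n = 4). The difference was 33.8 points without overlap. In B cells the BS libraries ran from 39.5 to 65.3% and the oxBS libraries from 29.2 to 64.2%. Among 33 edges with all 8 T cell libraries, BS libraries were all higher at 1, this edge, and oxBS libraries at 2, both of IAP-Vmn2r25, whose edge windows overlap and share calls. Over all 192 such edges of listed elements, these shares were 8.85 and 1.04%. The second share is made up of the same 2 edges of IAP-Vmn2r25, so it is no separate background. Among 35 such edges in B cells, BS libraries were all higher at 0 and oxBS libraries at 1, that of IAP-Ccr2 on the lower-coordinate side, against 0.552 and 1.66% of 181 edges. The counts are too few to set the edges of tsVM-IAPs apart from the others.

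Other bin lengths called stretches that 500 bp bins did not. In bins of 250 bp, the stretch from 750 to 1000 bp on the lower-coordinate side of IAP-Mapk4 was 23.2 points higher in B cells, while its 500 bp bin had a difference of 12.7 points. The 250 bp that start 1500 bp beyond the higher-coordinate edge of IAP-Lrfn3 were 31.5 points higher in B cells, against 17.2 points in its 500 bp bin. In bins of 1000 bp, the stretch from 4000 to 5000 bp beyond the higher-coordinate edge of IAP-Ccr9 was 21.4 points higher in B cells, and that from 1000 to 2000 bp on the lower-coordinate side of IAP-Mapk4 was 23.2 points higher. From 1000 to 2000 bp beyond the higher-coordinate edge of IAP-Acss2, T cells were higher, with a difference of -21.1 points.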
